A study of Mus musculus with 3 samples.

Results

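The genes described here are 46 genes of the cell cycle and DNA replication, chosen by name and not by their values, among 22342 protein-coding genes of the GENCODE M1 annotation on chromosomes 1 to 19 and X. Ser5-phosphorylated Pol_II was mapped over them by ChIP-Seq, which sequences the DNA bound to a protein after precipitation with an antibody, each aligned read being a tag. Primary macrophages grown from bone marrow of female Fvb mice in medium with L929-conditioned medium (a source of M-CSF, the growth factor that keeps these cells dividing) were used on day 7 of differentiation. LPS (lipopolysaccharide, a bacterial cell wall component that activates macrophages) was given at 10 ng/ml. A single Ser5 library was made from cells without it and another from cells exposed to it during 2 h, and untreated cells also gave a library of input DNA, which is chromatin sequenced without antibody. The antibody (ab5131) recognizes Pol_II phosphorylated at serine 5 of its C-terminal repeat, and the labels do not give the number of mice or cultures behind a library. With 1 library per condition no test was made, every interval below is a 95% interval for counting error alone, and fewer cells with Ser5 at a gene cannot be told apart from less Ser5 in each cell.

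Cells that enter division load the Mcm2-7 helicase onto origins in G1, when cyclin D with Cdk4 or Cdk6 and then cyclin E with Cdk2 phosphorylate the retinoblastoma proteins and release E2F factors, which drive genes for replication and for deoxynucleotide supply. Genes for mitosis are induced later, in G2, largely through CCAAT boxes and CHR elements in their promoters. Ser5 phosphorylation marks Pol_II that has begun transcription and is densest near the transcription start site (TSS), and LPS is known to stop the proliferation of macrophages.

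The promoters below run from 250 bases before to 50 bases after the TSS and belong to the member of each role with the most Ser5 tags at its TSS, so that the letters searched for can be seen where the signal was strongest. They were read 5′ to 3′ on the strand of the gene from the reference genome (NCBIM37, which is mm9), not from the Fvb mice: Cdt1 at chr8:125091665-125091964 on the plus strand, Pcna at chr2:132079001-132079300 on the minus strand, Rrm2 at chr12:25393367-25393666 on the plus strand, Cdk4 at chr10:126500340-126500639 on the plus strand, Cdk2 at chr10:128142058-128142357 on the minus strand, E2f3 at chr13:30077488-30077787 on the minus strand, Mki67 at chr7:142908013-142908312 on the minus strand and Myc at chr15:61816696-61816995 on the plus strand. Capitals mark the letters TTTCCCGC, TTTGGCGC, TTTGGCGG or TTTCGCGC (searched as E2F), CCAAT (the CCAAT box), TTTGAA (searched as CHR) and CACGTG (the E-box, which Myc and Mxd1 can bind with Max), on either strand. In Rrm2 the 12 capitals are a pair of E2F matches on opposite strands that overlap by 4 bases. The TSS used for Rrm2 lies downstream of the annotated start of its gene (25393106), so the whole stretch shown is inside that gene.
Cdt1: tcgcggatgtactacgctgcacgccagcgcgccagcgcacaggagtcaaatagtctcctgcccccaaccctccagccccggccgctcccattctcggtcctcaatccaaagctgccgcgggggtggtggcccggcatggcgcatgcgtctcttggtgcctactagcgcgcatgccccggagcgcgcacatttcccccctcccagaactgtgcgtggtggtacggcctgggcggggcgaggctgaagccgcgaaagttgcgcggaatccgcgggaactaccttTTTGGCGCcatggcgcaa
Pcna: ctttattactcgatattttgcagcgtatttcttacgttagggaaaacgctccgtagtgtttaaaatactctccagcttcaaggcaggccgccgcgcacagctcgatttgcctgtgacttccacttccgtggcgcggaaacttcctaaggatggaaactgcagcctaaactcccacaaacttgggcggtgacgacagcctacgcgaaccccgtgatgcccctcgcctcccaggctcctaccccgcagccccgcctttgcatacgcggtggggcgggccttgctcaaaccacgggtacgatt
Rrm2: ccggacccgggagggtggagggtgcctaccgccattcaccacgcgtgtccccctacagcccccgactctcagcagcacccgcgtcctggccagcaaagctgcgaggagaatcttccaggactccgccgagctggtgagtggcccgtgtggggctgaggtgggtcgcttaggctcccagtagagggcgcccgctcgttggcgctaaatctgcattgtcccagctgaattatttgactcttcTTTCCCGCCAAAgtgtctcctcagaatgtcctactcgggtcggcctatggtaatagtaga
Cdk4: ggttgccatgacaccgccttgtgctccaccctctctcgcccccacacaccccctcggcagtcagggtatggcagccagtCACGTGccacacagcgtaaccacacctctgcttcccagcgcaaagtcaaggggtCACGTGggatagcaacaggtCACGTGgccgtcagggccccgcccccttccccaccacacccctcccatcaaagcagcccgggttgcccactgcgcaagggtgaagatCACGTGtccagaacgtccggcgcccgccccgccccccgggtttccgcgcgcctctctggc
Cdk2: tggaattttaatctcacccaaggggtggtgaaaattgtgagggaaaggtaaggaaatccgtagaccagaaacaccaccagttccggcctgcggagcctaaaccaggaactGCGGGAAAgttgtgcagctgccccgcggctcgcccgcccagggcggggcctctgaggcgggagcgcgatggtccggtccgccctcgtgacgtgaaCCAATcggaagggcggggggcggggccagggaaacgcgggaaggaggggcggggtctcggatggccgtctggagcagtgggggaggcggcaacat
E2f3: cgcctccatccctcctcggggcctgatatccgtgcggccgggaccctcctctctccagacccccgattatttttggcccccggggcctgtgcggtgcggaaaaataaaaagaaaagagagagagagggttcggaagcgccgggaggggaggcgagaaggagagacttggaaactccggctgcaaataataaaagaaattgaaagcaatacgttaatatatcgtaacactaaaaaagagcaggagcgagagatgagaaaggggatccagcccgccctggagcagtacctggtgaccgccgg
Mki67: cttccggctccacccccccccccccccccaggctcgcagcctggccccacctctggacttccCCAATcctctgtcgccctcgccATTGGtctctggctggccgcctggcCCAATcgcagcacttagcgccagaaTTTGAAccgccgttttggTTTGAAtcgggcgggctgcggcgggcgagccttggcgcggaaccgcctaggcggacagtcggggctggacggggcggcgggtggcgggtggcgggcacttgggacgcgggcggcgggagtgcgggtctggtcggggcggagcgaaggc
Myc: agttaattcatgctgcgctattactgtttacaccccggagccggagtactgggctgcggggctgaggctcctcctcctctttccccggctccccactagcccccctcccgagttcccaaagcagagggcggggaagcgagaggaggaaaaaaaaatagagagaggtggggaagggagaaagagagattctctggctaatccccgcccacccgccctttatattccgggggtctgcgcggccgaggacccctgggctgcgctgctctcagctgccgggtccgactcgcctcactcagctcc
Cdt1, Rrm2 and Cdk2 held an E2F match, Cdk4 held 4 E-boxes, Mki67 held 3 CCAAT boxes and 2 CHR matches, and Cdk2 also held 1 CCAAT box. The promoters of Pcna, E2f3 and Myc held none of these letters.

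On chromosomes 1 to 19 and X the untreated Ser5 library held 7616771 tags, the LPS library 6249819 and the input 7533308. Levels are given in RPM per kb, where RPM are tags scaled to 1000000 tags of the library on those chromosomes, over a window of 1000 bp on each side of the TSS and over the rest of the gene (the gene body). At the TSS of the 10 macrophage markers there were between 105 and 1786 Ser5 tags in untreated cells, whereas the 25 markers of T cells, B cells, granulocyte precursors, erythroid cells and fibroblasts had between 0 and 17 in either Ser5 library (Hbb-b1 was at 0 in both), and all 8 LPS response genes were between 4.73 and 186 times higher after LPS. Over the 12581 coding genes with at least 10 Ser5 tags at the TSS the median ratio of LPS to untreated was 0.831 (quartiles 0.627 and 1.07), so a gene at the middle of the distribution was itself below 1. When the libraries were scaled by their tags outside all called peaks instead, the median of the same genes was 0.894, a shift of 0.11 on the log2 scale that moves every ratio below by the same factor.

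Most cell cycle and replication genes carried less Ser5 at their TSS after LPS. All 46 had at least 10 tags, and 20 were at least 2-fold lower, 1 (Mxd1, just past the limit) was at least 2-fold higher and 25 lay between, against 14.1% lower and 5.63% higher of all coding genes with at least 10 tags. The ratio was below 1 in 44 of the 46, with a median of 0.541 and a range from 0.103 (Ccnd1) to 2.00 (Mxd1). Ratios below 1 were also common among all coding genes with at least 10 tags, whose median was 0.831 (quartiles 0.627 and 1.07). The share of those genes below 1 is not given here, so the count of 44 is not set against a background. Added together, the 46 windows held 9909 tags in untreated cells, 4811 after LPS and 811 in the input, and the ratio of the sums was 0.592 (0.572 to 0.613). Of the 20 lower genes, 10 had an interval that lay wholly at or below 0.5, namely Ccnd1, Ccne1, Cdt1, E2f1, Mcm2, Mcm6, Pola1, Rrm2, Tk1 and Tyms. The 42 members with at least 100 tags, a limit set after the data were seen, held 18 of the lower genes and Mxd1, against 9.77% lower and 3.38% higher of the coding genes with that depth. The 10 macrophage markers, which are no cell cycle genes, had 2 lower and 2 higher genes and a median of 0.590, so low ratios were not limited to the cell cycle genes.

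**Figure D1:**
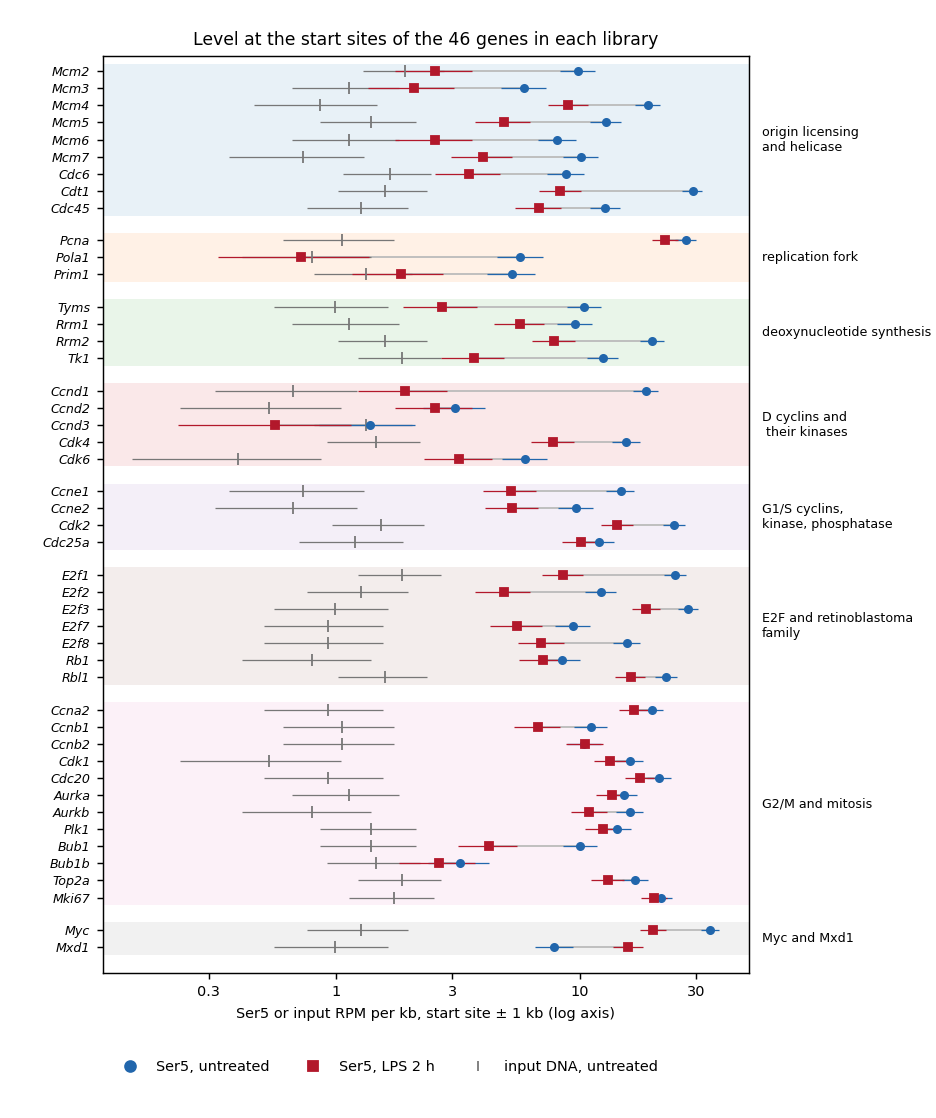
RPM per kb within 1000 bp of the TSS (log axis) for each of the 46 genes, in untreated cells (blue circles), after LPS (red squares) and in input (grey ticks), with 95% Poisson intervals for counting error. The red squares of the licensing genes lie well to the left of the blue circles, those of most G2/M genes lie close to them, and Mxd1 alone has its red square far to the right, at 15.8 against 7.87.

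The genes of origin licensing and the replicative helicase were the most uniform group. At the TSS 8 of 9 were at least 2-fold lower, the median ratio was 0.381, and the ratio of the summed tags (1771 and 546) was 0.376 (0.341 to 0.414). Cdt1, which brings the helicase to origins, had 442 tags in untreated cells, 104 after LPS and 24 in the input, or 29.0, 8.32 and 1.59 RPM per kb, and a ratio of 0.287 (0.229 to 0.356). Mcm4, a helicase subunit, had 289, 112 and 13 tags (18.96, 8.96 and 0.862 RPM per kb), a ratio of 0.472 (0.376 to 0.589), and its window also holds the TSS of Prkdc. Cdc6, which loads the helicase together with Cdt1, went from 134 tags (8.79 RPM per kb) to 44 (3.52), with 25 in the input (1.66), a ratio of 0.400 (0.278 to 0.566).

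The other subunits of the Mcm2-7 ring were lower to a similar degree. Mcm2 had 150 tags in untreated cells, 32 after LPS and 29 in the input (9.84, 2.56 and 1.92 RPM per kb), so that its level after LPS was 1.33 times the input, and its ratio of 0.260 (0.172 to 0.383) was the lowest of the licensing group. Mcm6 held 123, 32 and 17 tags (8.07, 2.56 and 1.13 RPM per kb), a ratio of 0.317 (0.208 to 0.471). For Mcm3 the counts were 90, 26 and 17 (5.91, 2.08 and 1.13 RPM per kb) and the ratio 0.352 (0.218 to 0.550). The intervals of the 6 Mcm genes all overlap one another, those of Mcm2 and Mcm4 only at their ends. Mcm5 held 195, 61 and 21 tags (12.8, 4.88 and 1.39 RPM per kb; ratio 0.381, 0.281 to 0.511). Mcm7 held 154, 50 and 11 (10.1, 3.998 and 0.730 RPM per kb; ratio 0.396, 0.282 to 0.548), with the TSS of Ap4m1 in the same window. Cdc45, which joins the loaded helicase when origins fire, was the group's exception at 0.534 (0.409 to 0.692), from 194 to 85 tags, and shares its window with Ufd1l.

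The 3 replication fork genes differed among themselves. Pola1, the catalytic subunit of DNA polymerase alpha (chrX:90550106-90877494, minus strand), went from 87 tags to 9 at its TSS, with 12 in the input (5.71, 0.720 and 0.796 RPM per kb). Its ratio of 0.126 (0.0558 to 0.251) was the second lowest of the 46 after Ccnd1, its level after LPS was at that of the input, and no Ser5 peak was called there after LPS. Prim1, the primase subunit that starts each new strand, had 80, 23 and 20 tags (5.25, 1.84 and 1.33 RPM per kb) and a ratio of 0.350 (0.210 to 0.563). Pcna, the sliding clamp of the polymerases, stood apart from both. It had 414 tags in untreated cells, 280 after LPS and 16 in the input (27.2, 22.4 and 1.06 RPM per kb), and its ratio of 0.824 (0.706 to 0.962) was close to the median of all coding genes.

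Among the genes of deoxynucleotide synthesis 3 of 4 were at least 2-fold lower, with a median of 0.347. Rrm2, the small subunit of ribonucleotide reductase whose level sets the enzyme's activity in S phase, had 301, 98 and 24 tags in untreated cells, LPS and input (19.7, 7.84 and 1.59 RPM per kb), a ratio of 0.397 (0.313 to 0.500). Tk1, the thymidine kinase of dividing cells, had 189, 46 and 28 tags (12.4, 3.68 and 1.86 RPM per kb) and a ratio of 0.297 (0.210 to 0.411), and the TSS of Afmid lies in its window. Tyms, thymidylate synthase, had 159, 34 and 15 tags (10.4, 2.72 and 0.995 RPM per kb) and a ratio of 0.261 (0.174 to 0.379). Rrm1, the large subunit of the reductase, was the one gene of the 4 above 0.5, with 146, 71 and 17 tags and a ratio of 0.593 (0.440 to 0.792). Its interval overlaps that of Rrm2. Taken as 16 genes, the licensing, fork and deoxynucleotide members had 13 lower genes at the TSS and a median ratio of 0.367.

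The D cyclins, which link growth factor signals to the cell cycle, ranged from the lowest ratio of the 46 genes to that of the median coding gene. Ccnd1 (chr7:152115836-152125774, minus strand) was the lowest. It went from 285 tags to 24, with 10 in the input (18.7, 1.92 and 0.663 RPM per kb), a ratio of 0.103 (0.0647 to 0.156), and its window held 3 Ser5 peaks in untreated cells and 1 after LPS. Ccnd2 was low in both conditions, at 47 and 32 tags against 8 in the input (ratio 0.830, 0.512 to 1.33). Ccnd3 had 21, 7 and 20 tags at the TSS used here (1.38, 0.560 and 1.33 RPM per kb), which is no more than input, and its ratio of 0.406 (0.146 to 0.992) therefore rests on few tags. At the coding TSS of Ccnd3 with the most Ser5 tags the ratio was 0.404. Of their kinase partners, Cdk4 had 236, 97 and 22 tags (15.5, 7.76 and 1.46 RPM per kb), which put it at the 2-fold limit with 0.501 (0.391 to 0.637). Cdk6 had 91, 40 and 6 tags and a ratio of 0.536 (0.360 to 0.785).

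Of the genes that act at the G1/S border only Ccne1 passed the 2-fold limit. Ccne1, the cyclin that activates Cdk2, had 224, 65 and 11 tags (14.7, 5.20 and 0.730 RPM per kb) and a ratio of 0.354 (0.264 to 0.468). Its relative Ccne2 was at 0.547 (0.403 to 0.736), from 147 to 66 tags. Cdk2 had the most tags of the 4, with 372 in untreated cells, 178 after LPS and 23 in the input (24.4, 14.2 and 1.53 RPM per kb) and a ratio of 0.583 (0.485 to 0.699). Cdc25a, the phosphatase that removes the inhibitory phosphates of Cdk2, had 182, 127 and 18 tags (11.9, 10.2 and 1.19 RPM per kb), and the interval of its ratio, 0.850 (0.673 to 1.07), holds 1.

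Within the E2F and retinoblastoma family the activator E2f1 and the pair E2f2 and E2f8 were at least 2-fold lower. E2f1 had 376, 107 and 28 tags (24.7, 8.56 and 1.86 RPM per kb), a ratio of 0.347 (0.277 to 0.431). E2f2, also an activator, had 186, 61 and 19 tags (12.2, 4.88 and 1.26 RPM per kb) and a ratio of 0.400 (0.294 to 0.536). E2f8, a repressor of the same family, had 237, 87 and 14 tags (15.6, 6.96 and 0.929 RPM per kb) and a ratio of 0.447 (0.346 to 0.574). The other activator, E2f3, had a higher ratio than E2f1 and E2f2, with an interval above both of theirs. It had 425, 234 and 15 tags (27.9, 18.7 and 0.995 RPM per kb) and a ratio of 0.671 (0.570 to 0.789). E2f7 was at 0.588 (0.435 to 0.789). Of the pocket proteins that hold E2F factors in check, Rbl1 (p107) had 345, 202 and 24 tags (22.6, 16.2 and 1.59 RPM per kb) and a ratio of 0.714 (0.597 to 0.851). Rb1 had 129, 88 and 12 tags at its TSS (8.46, 7.04 and 0.796 RPM per kb), and its ratio of 0.831 (0.627 to 1.10) was that of the median coding gene.

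**Figure D2:**
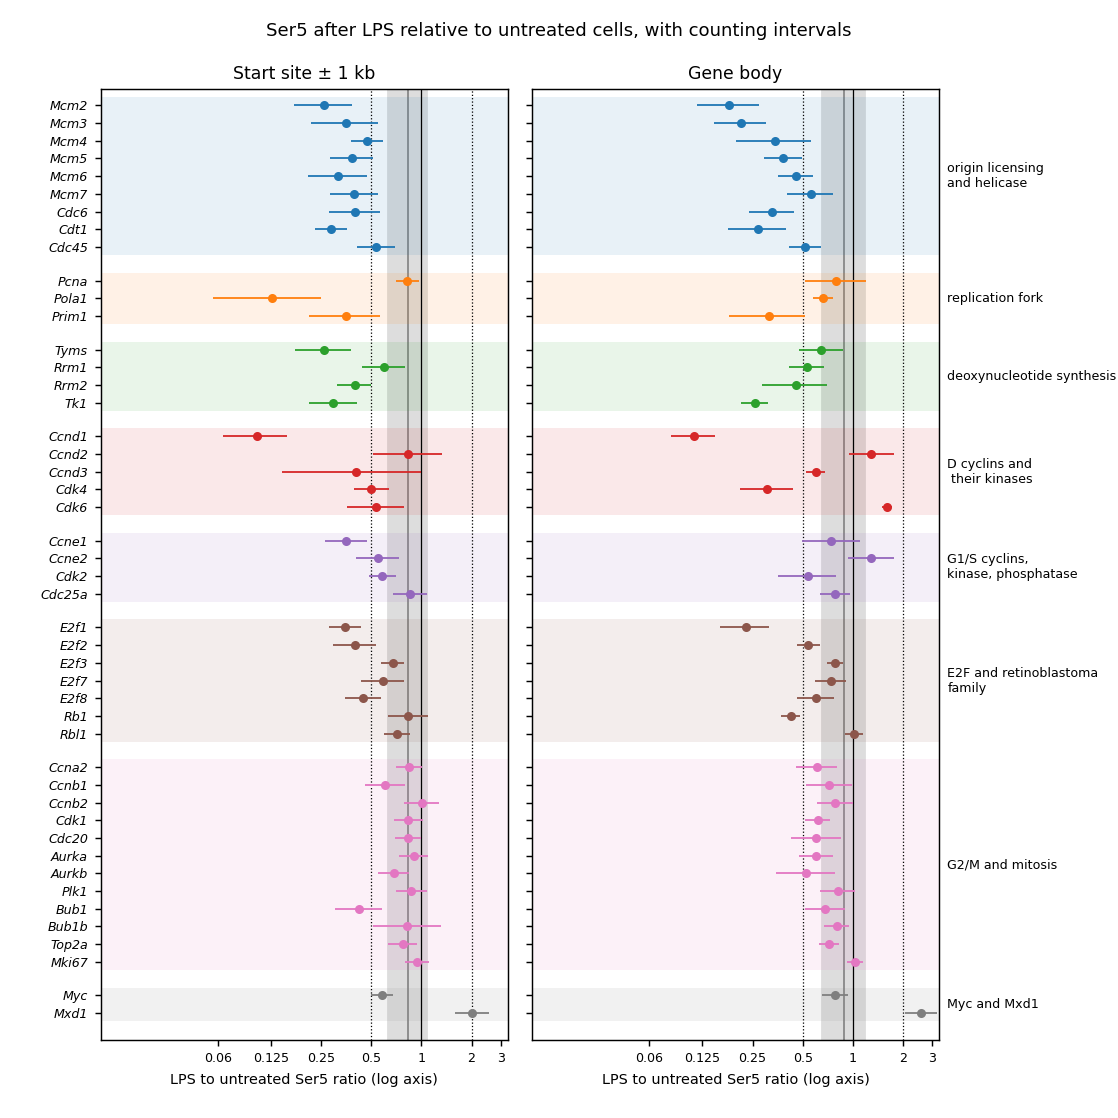
LPS to untreated ratio of Ser5 (log axis) at the TSS (left) and over the gene body (right) for each of the 46 genes, coloured by role, with 95% counting intervals. The grey line and band are the median and quartiles of all coding genes with at least 10 tags, the solid line is 1 and the dotted lines are 0.5 and 2, and most G2/M genes fall inside the band at the TSS while the licensing genes, with Cdc45 the closest, fall to its left.

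The genes of G2 and mitosis lay close to the middle of all coding genes at the TSS. Of 12, 1 was at least 2-fold lower, the median ratio was 0.833 and the summed tags (2673 and 1773) gave 0.808 (0.761 to 0.859). Mki67, the antigen by which dividing cells are scored, had 328, 252 and 26 tags (21.5, 20.2 and 1.72 RPM per kb) and a ratio of 0.936 (0.791 to 1.11). Cdc20, which activates the anaphase-promoting complex, had 322, 220 and 14 tags (21.1, 17.6 and 0.929 RPM per kb) and a ratio of 0.833 (0.698 to 0.991). Ccnb2, a mitotic cyclin, had 159, 131 and 16 tags and was level with untreated cells at 1.00 (0.791 to 1.27). The exception was Bub1, a kinase of the spindle checkpoint, with 153, 53 and 21 tags (10.0, 4.24 and 1.39 RPM per kb) and a ratio of 0.422 (0.303 to 0.581). Its checkpoint partner Bub1b was at 0.821 (0.511 to 1.30) on 49 and 33 tags. Ccnb1, the cyclin that starts mitosis with Cdk1, came next after Bub1 at 0.606 (0.461 to 0.791), followed by Aurkb, the kinase of the chromosomal passenger complex, at 0.684 (0.551 to 0.847). The other 7 (Top2a, Cdk1, Ccna2, Plk1, Aurka, Cdc20 and Mki67) lay between 0.773 and 0.936, and Aurka shares its window with Cstf1.

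Myc and its antagonist Mxd1, which compete for the partner Max, lay on opposite sides of 1 at the TSS. Myc had the highest level of the 46 genes in untreated cells, with 523 tags, 250 after LPS and 19 in the input (34.3, 20.0 and 1.26 RPM per kb), and a ratio of 0.583 (0.499 to 0.679). Mxd1 (chr6:86597038-86619153, minus strand) had 120 tags in untreated cells, 197 after LPS and 15 in the input (7.87, 15.8 and 0.995 RPM per kb), and a ratio of 2.00 (1.59 to 2.53), and its interval lies above 1. With tags moved 75 bp downstream the ratio was 1.98 and with a window of 500 bp on each side 1.93, so that no member passed the 2-fold limit upwards at the TSS. Over the gene body Mxd1 had 121, 253 and 118 tags (0.752, 1.92 and 0.742 RPM per kb), which is the level of the input in untreated cells and 2.58 times the input after LPS. The body ratio of Mxd1 was 2.55 (2.04 to 3.19), and that of Myc 0.781 (0.649 to 0.937) from 306 and 196 tags.

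Over the gene bodies 14 members were at least 2-fold lower, 1 (Mxd1) was at least 2-fold higher and 31 lay between, against 12.2% lower and 6.66% higher of the 16370 coding genes with at least 10 tags, and the median was 0.602 against 0.885. At the TSS and over the body alike 12 were lower, namely Ccnd1, Cdc6, Cdt1, E2f1, Mcm2, Mcm3, Mcm4, Mcm5, Mcm6, Prim1, Rrm2 and Tk1. Ccnd1 had 536, 49 and 73 tags over its body in untreated cells, LPS and input (7.87, 0.877 and 1.08 RPM per kb), and its ratio of 0.111 (0.0814 to 0.149) has an interval that overlaps that at the TSS. Tk1 carried the densest body signal of the replication genes, 671 tags in untreated cells, 142 after LPS and 55 in the input (9.21, 2.38 and 0.763 RPM per kb), a ratio of 0.258 (0.214 to 0.310). Other coding genes lie over part of these bodies: Afmid over Tk1, Oraov1 over Ccnd1 and Gm20388 over Cdt1. In E2f1 the body went from 231 tags to 43 (3.20 to 0.725 RPM per kb), a ratio of 0.227 (0.160 to 0.315). The bodies of the remaining 9 had ratios between 0.181 (Mcm2) and 0.455 (Mcm6). Bodies lie nearer the background than start sites do: 29 of the 46 were at least 2-fold over input in untreated cells and 14 after LPS, and 12 were below the input after LPS. The same body counts over all coding genes are not given here.

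Some genes fell on different sides of the 2-fold limit at the start site and over the body. The intervals of start site and body overlap for Cdk4, Bub1, Ccnd3, E2f2, E2f8 and Mcm7. They do not overlap for Rb1, Ccne1, Pola1 and Tyms. Cdk4 and Rb1 were at least 2-fold lower over the body only. Cdk4 had 159 body tags in untreated cells, 40 after LPS and 15 in the input (6.17, 1.89 and 0.588 RPM per kb; ratio 0.307, 0.211 to 0.436), and Tspan31 overlaps it. Rb1 had 880, 305 and 790 (0.819, 0.346 and 0.743 RPM per kb; ratio 0.422, 0.370 to 0.482), so its body was near the input before LPS and at 0.465 times the input after it, and Lpar6 and Rcbtb2 lie over it. The reverse held for 8 genes that were lower at the TSS only (Bub1, Ccnd3, Ccne1, E2f2, E2f8, Mcm7, Pola1 and Tyms). Their body ratios lay between 0.539 (E2f2) and 0.742 (Ccne1), and that of Pola1 (0.662, 0.578 to 0.758) comes from 620 and 337 tags spread over 326 kb, at 0.548 and 0.363 times the input. Cdk6 was the one gene whose interval lay below 1 at the TSS and above 1 over the body, where it had 1397, 1846 and 827 tags (1.03, 1.66 and 0.616 RPM per kb) and a ratio of 1.61 (1.501 to 1.73). The overlapping record Gm17590 lies within Cdk6. In all, 12 members have another coding gene over part of the body and 5 another coding TSS in the window, and the tags of such pairs cannot be told apart.

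**Figure D3:**
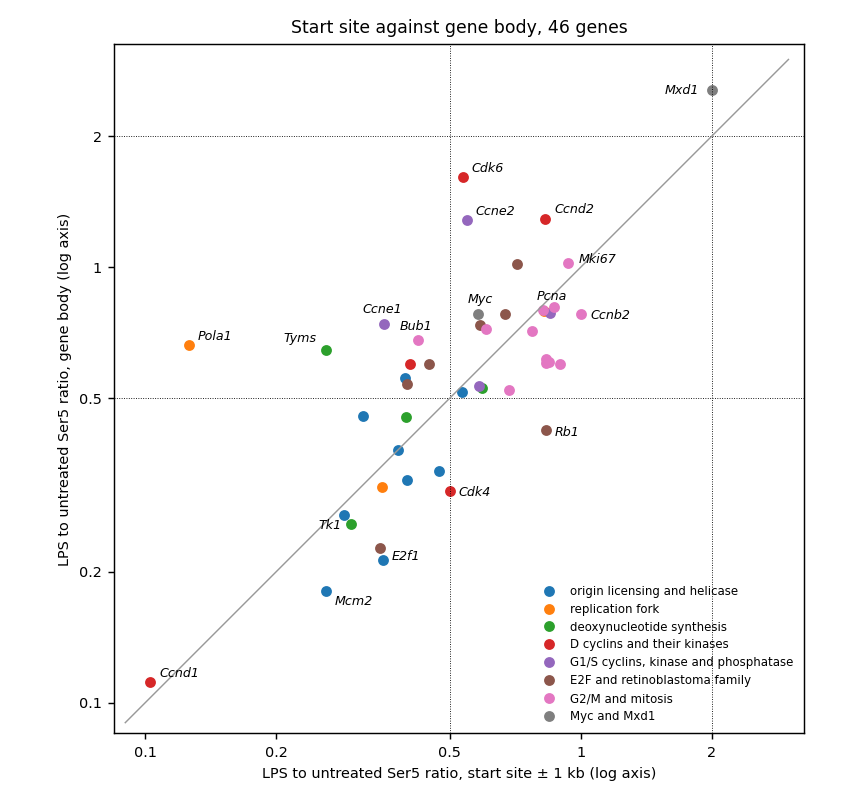
LPS to untreated ratio of Ser5 at the TSS (x) against that over the gene body (y) for the 46 genes, both on log axes, coloured by role, with the diagonal in grey and the 2-fold limits dotted. The licensing genes have both ratios between 0.181 and 0.557, Pola1 sits far above it with a TSS ratio of 0.126 and a body ratio of 0.662, and the G2/M genes are below the diagonal in 9 of 12 cases.

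The density at the TSS relative to that of the body was higher after LPS in 24 of the 46 genes and lower in 22, and over 11632 coding genes with at least 10 tags in both regions it was higher in 5209 and lower in 6412. For the G2/M genes it was higher in 9 of 12, with a median of 6.02 in untreated cells and 7.31 after LPS, since their bodies had a median ratio of 0.697 and their start sites one of 0.833. None of the 12 was at least 2-fold lower over the body. The values that were lowest relative to untreated cells were those of Pola1, 22.9 and then 4.36, and of Cdk6, 5.81 and then 1.93.

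The mean profile around the TSS was highest within 100 bp downstream of it in both Ser5 libraries. At that place the 16 replication members went from 49.2 to 21.4 RPM per kb and gene, the 12 G2/M members from 59.6 to 44.9 and the other 18 members from 44.8 to 22.8, while all coding genes together went from 24.3 to 21.7. The replication members also had a shoulder upstream of the TSS, which at 400 to 500 bp upstream stood at 18.1 in untreated cells, 6.80 after LPS and 1.83 in the input. Mcm4, Mcm7, Cdc45 and Tk1, which are among them, have the TSS of another coding gene in the window, and its tags are included. In untreated cells 51.8% of their tags within 1000 bp lay downstream of the TSS, and after LPS 48.7%.

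**Figure D4:**
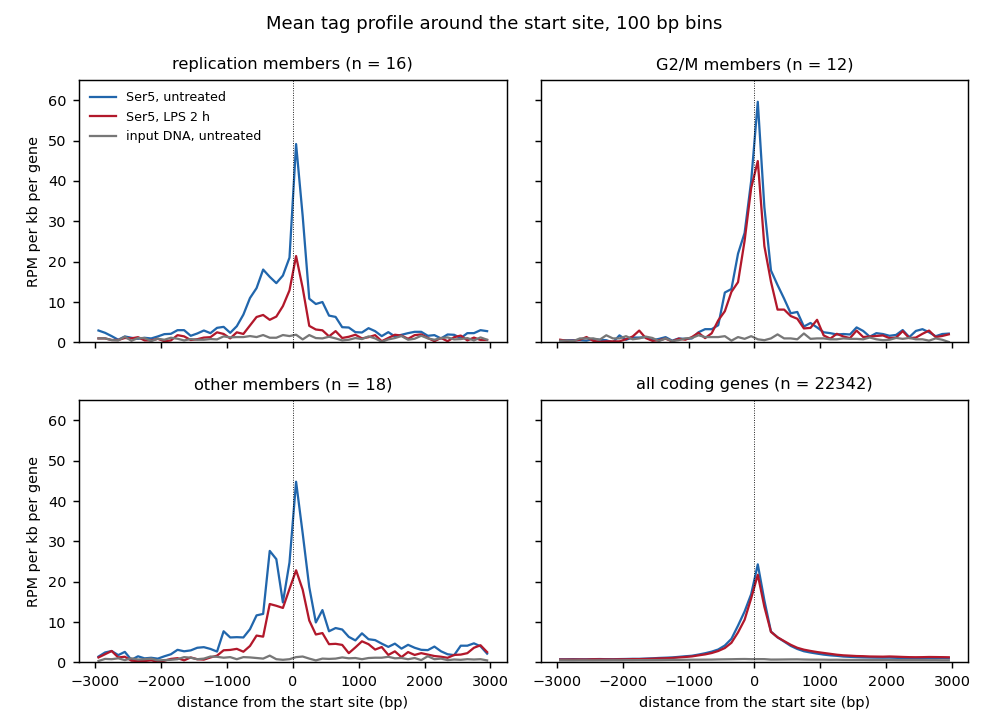
Mean RPM per kb and gene in bins of 100 bp against the distance from the TSS in the direction of transcription, for untreated Ser5 (blue), Ser5 after LPS (red) and input (grey). The red curve peaks at 21.4 against 49.2 for the 16 replication members (licensing, fork and deoxynucleotide genes), at 44.9 against 59.6 for the 12 G2/M members and at 22.8 against 44.8 for the other 18 members, and runs close to the blue one for all 22342 coding genes.

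Against the input, 45 of the 46 start sites were at least 2-fold higher in untreated cells (72.1% of the coding genes with at least 10 tags) and 39 after LPS (70.7%). Ccnd3 was under 2-fold in both libraries, and Mcm2, Mcm3, Prim1, Tk1, Bub1b and Pola1 were so after LPS only. A deposited Ser5 peak overlapped the window of all 46 members in untreated cells and of 44 after LPS, against 48.1% and 46.1% of all coding genes, and Ccnd3 and Pola1 were the members without a peak after LPS.  Peaks covered the TSS itself in 45 and 42 members, and the median length of such peaks was 1013 bp before and 731 bp after treatment. Of the 42 covered in both, the peak was shorter after LPS in 33 and longer in 9, Mxd1 and Mki67 among the latter. At Cdt1 the peak over the TSS spanned 1929 bp in untreated cells against 1184 bp with LPS, and at Mxd1 946 bp against 1167 bp. Peak length depends on depth, and the LPS library had fewer tags. How often peaks were shorter over all coding genes is not given here.

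The letters shown above were found in the promoters of the members as follows. An E2F match was present in 17 of 46 promoters (37.0%), against 2.88% of all 22342 coding promoters and 4.90% of the 9411 with at least 100 Ser5 tags at the TSS. By role they were in 6 of the 9 licensing genes, in 6 of the 7 E2F and retinoblastoma genes and in 1 of the 12 G2/M genes (Cdk1). For Rrm2 and E2f8, which are among the 17, the stretch searched lay wholly inside the annotated gene. A CHR match was in 12 members (26.1%, against 16.1% of all coding promoters and 11.4% of those with at least 100 tags), of which 9 were G2/M genes. A CCAAT box was in 30 (65.2%, against 37.8% and 38.7%), 11 of them G2/M genes. An E-box was in 5 members (10.9%, against 7.78% of all coding promoters and 10.8% of those with at least 100 tags). The 17 members with an E2F match had a median ratio of 0.400 at the TSS and 11 of them were at least 2-fold lower. The 29 without one had a median of 0.593, with 9 lower, and both sets spanned a wide range, from 0.126 to 0.850 and from 0.103 to 2.00. As matches were unevenly spread over the roles, match and role cannot be told apart in these medians. Among the licensing genes those with a match lay between 0.287 (Cdt1) and 0.472 (Mcm4). Mcm2, Mcm7 and Cdc45, without one, had 0.260, 0.396 and 0.534. Ccnd1, Mcm2, Tyms and Tk1 were among the lower genes without an E2F match, and Cdc25a, Cdk1 and Rb1 were among those with a match that were not lower. A match of letters in the reference does not show that a factor was bound, and no match says only that these letters are not in this window.

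Genes of the same pathways outside the 46 were counted by the same rule. At the TSS 14.1% of all coding genes with at least 10 tags were lower and 5.63% higher. Of 36 other replication genes (origin recognition, polymerase, clamp loader, ligase and related genes) 12 were at least 2-fold lower at the TSS, 0 were higher and the median was 0.600. The lowest were Dut, which removes dUTP (157, 36 and 10 tags, ratio 0.279, 0.189 to 0.404), Uhrf1 (282, 65 and 9 tags, 0.281, 0.211 to 0.369) and its partner, the maintenance DNA methyltransferase Dnmt1 (290, 67 and 20 tags, 0.282, 0.213 to 0.368). The highest were Rpa2, Rfc3 and Orc4, between 0.897 and 0.940. Of 33 other mitotic genes 3 were lower and 0 higher, with a median of 0.756. Mybl2, a partner of the complex that binds CHR elements, was the lowest at 0.301 (0.205 to 0.431, 154 and 38 tags), followed by Nek2 (0.393) and Cdc25b (0.446), and the highest were Cdca8 (0.963), Foxm1 (1.04) and Cenpe (1.15). Over the body 13 of the 36 and 5 of the 33 were at least 2-fold lower, against 12.2% of all coding genes with at least 10 tags.

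**Figure D5:**
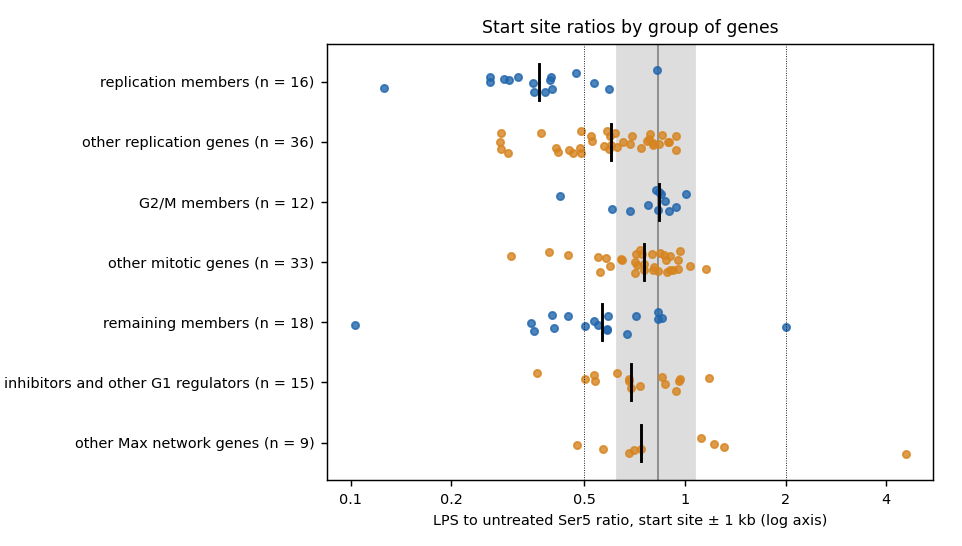
LPS to untreated ratio of Ser5 at the TSS (log axis) for the members (blue) and for other genes of the same pathways with at least 10 tags (orange), 1 point per gene, with the group median as a black bar and the median and quartiles of all coding genes as a grey line and band. The 16 replication members have a median of 0.367, the 36 other replication genes 0.600, the 12 G2/M members 0.833 and the 33 other mitotic genes 0.756, and points are spread vertically for legibility only.

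Among 16 inhibitors and other G1 regulators 15 had at least 10 tags, and of these 1 was lower (Tfdp2, a dimer partner of E2F, 61 and 18 tags, 0.360, 0.200 to 0.617) and 0 were higher, with a median of 0.689. The next lowest were Tfdp1 (0.502) and Wee1 (0.536), the kinase that holds Cdk1 inactive. The kinase inhibitor Cdkn1b (0.965), Rbl2 (0.937) and Trp53 (1.18) were the highest, and Cdkn1b had 106 and 166 tags over its body, a ratio of 1.91. Of the 9 other genes of the Max network 1 was lower, the Max-binding repressor Mnt (426 and 166 tags, 0.475, 0.395 to 0.569), and 1 was higher, Mycl1, which had 4 and 15 tags against 12 in the input. Mxi1 (0.569) and Mlx (0.680) followed Mnt at the low end. Among those with at least 30 tags the highest were Mga (1.30), Max (1.12) and Mxd4 (0.740). For both lists the shares over all coding genes with at least 10 tags were 14.1% lower and 5.63% higher.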

How the data were processed

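Per the study's methods, the authors shortened 76-base reads from their 3′ end, used Bowtie for unique alignments to mm9 (at most 2 mismatches), and ran MACS on either Ser5 library with the input as control, at a p-value of 1e-05. Tool versions are not given in the sources used here. The deposited files hold tag positions (45 bases in untreated, 30 in LPS and 36 in input, whereas the methods give the lengths of the Ser5 libraries the other way round; the LPS response genes were higher in the library labelled LPS) and peaks with a score, minus 10 times the log10 of the p-value, as the authors' peak caller gave it. The tag files count from 0, so 1 was added.

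Tags were counted by their 5′ end within 1000 bp of the TSS and over the remaining gene (the body, of at least 1000 bp) for all coding genes of GENCODE M1, with Python 3.11.15, numpy 2.4.6, pandas 2.3.3 and scipy 1.17.1. The TSS was the annotated transcript start with the most other starts within 500 bp. Ratios were RPM per kb in LPS over untreated, 0 tags were set to 0.5, and a feature was used if the Ser5 libraries together held at least 10 tags. The intervals of ratios are exact binomial intervals conditional on the sum of both counts, those of single levels are exact Poisson intervals, and both cover counting error only. The functions were tested on simulated data. No test was made between libraries. Members past 2-fold at the TSS or body with an interval that excludes 1, and the 2 members of each role with the most tags, are given in full. Of the other lists, the 3 highest and 3 lowest TSS ratios among genes with at least 30 tags are named. The members and lists were chosen by name, but with earlier results of these data known.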

Additional observations from a re-analysis of the deposited data

How the results depend on the processing

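No paired analysis was possible because each condition had a single library, and for the same reason no library could be left out. With tags moved 75 bp downstream and with a window of 500 bp on each side of the TSS, the count of members at least 2-fold higher at the TSS was 0 and 0 in place of 1, since Mxd1 then had ratios of 1.98 and 1.93. With a fold of at least 1.5, 28 of the 46 members in place of 14 were lower over the body, against 26.1% of all coding genes. There 2 of the 46 in place of 1 were higher, against 13.6%. At the TSS 29 of the 46 were lower, against 29.3% of all coding genes. Over the alternatives that kept the 2-fold limit the members lower at the TSS numbered between 17 (of 41) and 21 (20 as reported) and those lower over the body between 12 and 16. The medians lay between 0.530 and 0.620 at the TSS and between 0.602 and 0.647 over the body. Members at least 2-fold over input numbered between 40 and 46 in untreated cells and between 35 and 44 after LPS. With peaks of p at most 1e-10 only, 46 members had a peak in untreated cells and 38 after LPS. Of 598 ratios of single members under the alternatives, 591 lay inside the interval reported. As the alternatives largely recount the same tags, most ratios could move little, and the count is no measure of repeatability. The 7 outside were the TSS of Myc with 1 tag per position (0.680), the body of Cdk6 with scaling outside peaks (1.73), the body of Ccnd3 from the TSS with the most Ser5 (0.451), the TSS of Rrm2 (0.301) and Ccne1 (0.471) in the window of 500 bp, and Tyms (0.442) and Ccne2 (0.874) over the whole gene. The last value, for Ccne2, lay on the other side of 1 from its body ratio of 1.28 (0.928 to 1.77). For Mcm2, Mcm3, Prim1, Pola1, Tk1, Bub1b and Ccnd3 the level after LPS was under 2 times the input. The input is not the lowest level of a Ser5 library. The T cell, B cell, granulocyte precursor, erythroid and fibroblast markers had TSS medians of 0.227 to 0.290 times the input in untreated cells. After LPS these medians, which rest on few tags, were 0.161 to 0.804. No background was subtracted, so how far the Ser5 of the named members fell without it is not resolved.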

Other observations

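The 18 members outside replication and G2/M also carried a separate maximum upstream of the TSS, which at 300 to 400 bp upstream reached 27.6 RPM per kb and gene in untreated cells and 14.5 after LPS. Leaving out the 5 members whose window holds another coding TSS (Mcm4, Mcm7, Cdc45, Tk1 and Aurka), 17 of 41 were at least 2-fold lower at the TSS and the median was 0.583. The 18 members with a CHR match or a CCAAT box and no E2F match had a median ratio of 0.729 at the TSS, and 4 of them were at least 2-fold lower. Most G2/M members are in this set, so letters and role cannot be told apart there.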
